A study of Bos taurus with 8 samples.

Results

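The genes described here are the 4 myogenic regulatory factors (MRFs) MYF5, MYOD1, MYOG and MYF6 and the paired box factors PAX7, PAX3 and PAX6, which are 7 of the 21880 genes in the count matrices. They were chosen by name, as the rows of the feature table that carry these symbols, and each symbol stood for a single Ensembl gene: ENSBTAG00000026972 for MYF5, ENSBTAG00000002216 for MYOD1, ENSBTAG00000006030 for MYOG, ENSBTAG00000014003 for MYF6, ENSBTAG00000014967 for PAX7, ENSBTAG00000009950 for PAX3 and ENSBTAG00000004561 for PAX6.

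Satellite cells (SCs) are the stem cells of skeletal muscle, and PAX7 is the factor by which resting SCs are usually recognised. On activation, MYF5 and MYOD1 commit cells to the muscle lineage, MYOG drives the exit into differentiation and fusion, and MYF6, also called MRF4, acts late in that course. PAX3, the closest relative of PAX7, acts in the muscle precursors of the embryo, while PAX6 is known for its part in eye, brain and endocrine pancreas. The MRFs bind DNA as dimers with E proteins and with the help of MEF2 and other cofactors, and ID, HES and TWIST proteins can hold them in check.

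The study followed cells of the semitendinosus muscle of 10 Belgian Blue cattle, both calves and adults, through long-term culture in serum-free growth medium. Timepoint 1 was cells straight from muscle, Timepoint 2 was passage 0 after 72 h of culture, and Timepoints 3, 4 and 5 were passages 2, 5 and 8. From Timepoint 3 the cells of donors 5, 6 and 10 were sorted SC cultures on laminin, those of donors 4, 7 and 8 were sorted cultures of fibro-adipogenic progenitors (FAPs) on collagen, and those of donors 1, 2 and 9 were unsorted cultures on fibronectin, while donor 3 was present at Timepoint 1 alone. Each timepoint was a single pooled 10x Chromium 3′ library whose cells were assigned to donors by genotype, so a timepoint and its library cannot be told apart. Calves were not compared with adults here, because neither the sample records nor the cell tables carry the age class.

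The 5 libraries held 36129 cells that passed the authors' quality control, between 2772 and 10405 per timepoint, with a median of 4184 UMIs (unique molecular identifiers, 1 per captured RNA molecule) per cell at Timepoint 1 and 18340 to 27239.5 at the later timepoints. In the kept cells 129 barcodes were found in more than 1 library. The authors' labels named 647 SCs in muscle and, in culture, 2282, 3979, 3586 and 156 SCs from Timepoint 2 to Timepoint 5. The label was checked against 9 SC markers: all 9 were detected in the SCs of Timepoints 1 and 2, but CHRDL2 was at 0 at Timepoint 3 and CALCR, CHRDL2 and CHODL were at 0 at Timepoint 5. A level below is in CPM, the gene's UMIs per 1000000 UMIs of a donor's cells of that type and timepoint, for donors with at least 10 such cells. In such sums, fewer expressing cells, less of the gene's RNA per cell and more RNA of other genes cannot be told apart.

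MYF5, MYOD1, MYOG and PAX7 were found almost wholly in SCs, MYF6 and PAX3 less so, and PAX6 mostly in cells with other labels. SCs held 94.6% of the 34828 MYF5 UMIs, 96.5% of the 22276 MYOD1 UMIs, 96.1% of the 26208 MYOG UMIs and 96.9% of the 1025 PAX7 UMIs. The late factor MYF6 had 82.8% of its 6598 UMIs in SCs and PAX3 73.0% of its 6009 UMIs. PAX6 had only 28.0% of its 1653 UMIs in SCs, and its other UMIs were mostly in cells labelled FAPs at Timepoints 4 and 5. FAP-labelled cells of the SC cultures held 516 and 374 UMIs at these timepoints. At Timepoint 4 those cells stood apart from SCs by the SC markers but not by the FAP markers, as given below. Since the cell types were named from the same expression values, these shares are a description.

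The order of the levels over 19 combinations of cell type and timepoint began with the SCs of muscle for 5 of the 7 genes. MYF5 averaged 793 ± 390 CPM (SD, n = 10 donors) in muscle SCs, then 138 ± 32.8 (n = 7), 136 ± 24.7 (n = 9) and 128 ± 76.2 (n = 4) in the SCs of Timepoints 4, 3 and 5, values that did not differ beyond their spread, and 59.6 ± 22.4 (n = 9) in those of Timepoint 2. The next in that order were the vascular endothelial cells (VECs) of muscle at 10.99 ± 14.3 CPM (n = 10). MYF6 was also higher in muscle SCs (176 ± 82.7 CPM) than in cultured SCs, whose means of 19.9 to 31.9 CPM overlapped. Only donor 10 at Timepoint 5, with 78.6 CPM, reached the lowest value in muscle, the 78.0 CPM of the same donor.

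MYOD1 stood at 145 ± 79.6 CPM in muscle SCs, at 88.2 ± 37.5 in SCs of Timepoint 4 and at 63.4 ± 65.9 in those of Timepoint 3, neighbours that overlapped, and its lowest SC level was 6.401 ± 11.7 CPM at Timepoint 2, below the 25.3 ± 29.97 CPM of cells labelled VECs in muscle. That VEC value came from 25 of 1166 cells, of which 12% had a UMI of the endothelial marker PECAM1 against 80.4% of the others. MYOG ran from 472 ± 411 CPM in muscle SCs to 189 ± 143, 116 ± 45.7 and 98.8 ± 71.0 in SCs of Timepoints 4, 5 and 3. PAX7 had 17.2 ± 10.4 CPM in muscle SCs and between 0.724 and 6.22 CPM in cultured SCs. For PAX3 the order was turned round: SCs of Timepoint 5 led with 41.4 ± 17.0 CPM, followed by those of Timepoint 4 with 30.6 ± 12.4, and PAX6 was led by the FAPs of Timepoints 5 and 4 with 9.49 ± 12.4 and 7.82 ± 10.997 CPM (n = 9 each), which overlapped widely. In these FAPs PAX6 averaged 21.7 and 20.5 CPM in SC cultures, 5.84 and 2.49 in unsorted and 0.908 and 0.492 in FAP cultures. SCs of the same timepoints averaged 4.49 and 2.63 CPM.

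**Figure D1:**
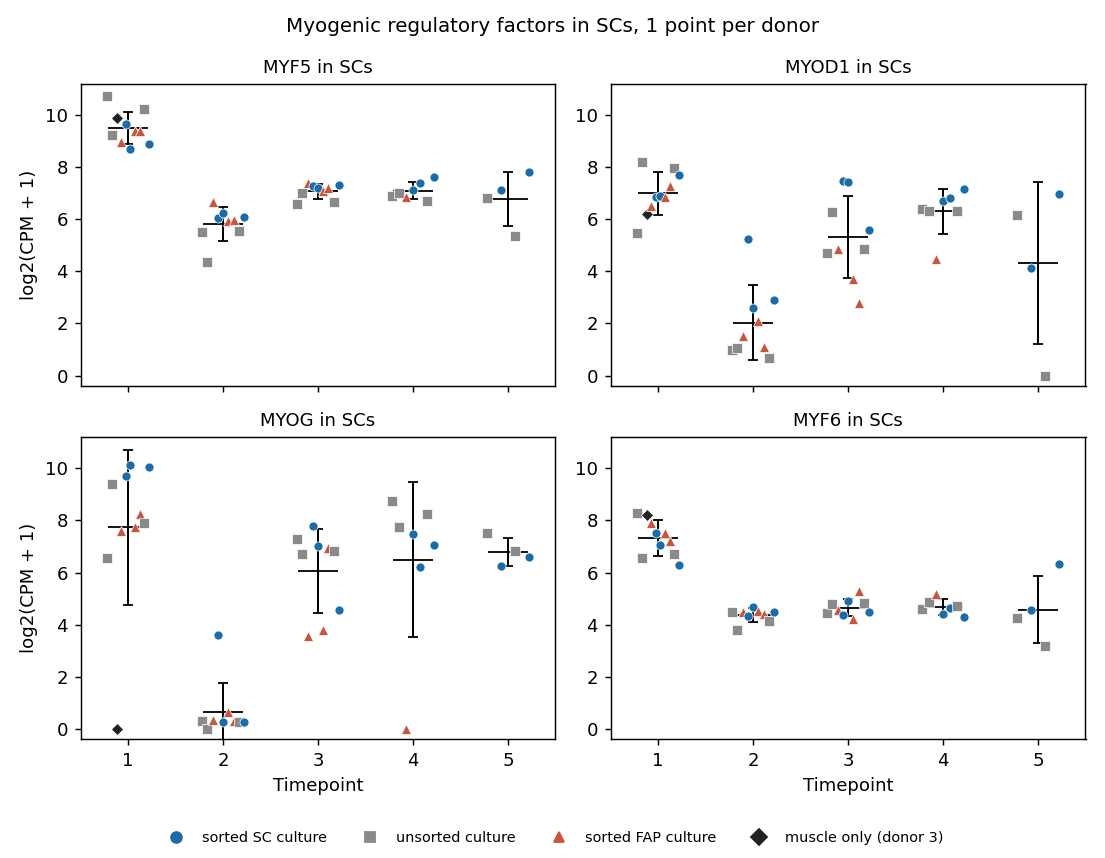
Levels of MYF5, MYOD1, MYOG and MYF6 in SCs as log2(CPM + 1), with 1 point per donor with at least 10 SCs, against the timepoint. Horizontal lines are means, bars are SD, and the colour gives the kind of culture a donor's cells entered from Timepoint 3. All 4 genes are lowest or near lowest at Timepoint 2, and MYOG has a single donor at 0 at Timepoint 1.

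In muscle, MYOG was carried by a small group of SCs that had little MYF5. Of the 647 muscle SCs, 84 had any MYOG UMI, and 57 of them (8.81%) had at least 5 and together held 97.2% of the 1705 MYOG UMIs, with up to 106 in 1 cell. These cells came from 9 of the 10 donors and made up 1.41 to 18.2% of a donor's SCs in those donors, while none of the 26 SCs of donor 3 was among them. A MYF5 UMI was found in 7.02% of the 57 cells but in 75.0% of the 563 SCs without MYOG, and the summed MYF5 level was 14.4 against 828.6 CPM.

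The other factors were spread differently over the same cells. MYF6 was found in 1.75% of the MYOG-high SCs and in 42.6% of those without MYOG, and PAX7 in 0 of the 57 and in 7.46% of the 563. MYOD1 was found in 45.6% against 25.8%, at unequal depth. The 27 SCs with 1 to 4 MYOG UMIs had MYOD1 in 74.1% and MYF5 in 29.6%. Median depth was 5754, 5666 and 3655 UMIs per cell in SCs with at least 5, 1 to 4 and no MYOG UMIs, so the scarcity of MYF5 was found in the deeper cells. With every cell thinned to 2000 UMIs, MYF5 was found in 5.48% of 73 SCs with MYOG and in 63.4% of 528 without. Thinned in the same way, MYOD1 was found in 20.5% against 17.6%, and in donors 2, 8 and 10 it was found less often in the SCs with MYOG.

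**Figure D2:**
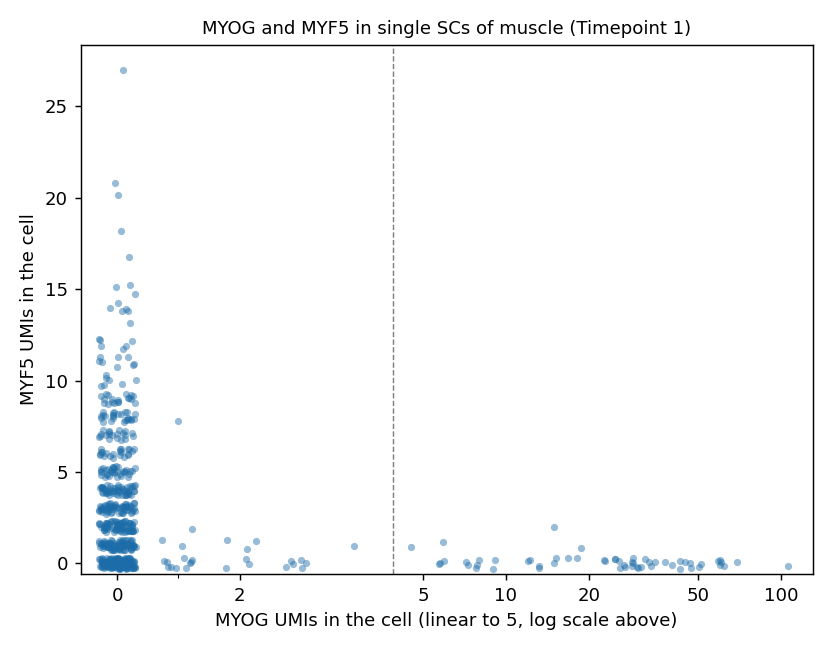
MYF5 UMIs against MYOG UMIs in each of the 647 SCs of muscle, 1 point per cell with a small random shift so that equal values can be seen; the x axis is linear up to 5 UMIs and logarithmic above. The 57 cells with at least 5 MYOG UMIs lie right of the dashed line and hold 5 MYF5 UMIs in all.

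In culture MYF5 was again found less often in SCs with MYOG at Timepoints 3 and 4, but not at Timepoint 2, where 9 cells thinned to 10000 UMIs had MYOG and MYF5 was found in 44.4% of them and in 40.5% of the 1905 without. At Timepoint 3, at the same depth, MYF5 was found in 35.6% of 419 SCs with MYOG and in 64.5% of 3355 without, and MYOD1 in 73.0% against 38.1%. At Timepoint 4 the shares were 40.6% of 409 against 72.6% of 2831 for MYF5 and 69.7% against 40.0% for MYOD1. Donor 9 at Timepoint 3 went against the pooled MYF5 values with 50% against 47.1%. PAX3, which was found in 33.1% of the SCs without MYOG at Timepoint 4, was found in 16.9% of those with it. These shares pool donors and cultures that differ in the genes. At Timepoint 3, unthinned, MYOD1 was found in 59.8% of SCs of SC cultures and 18.4% of unsorted ones, and MYOG in 17.6 and 10.6%. At Timepoint 4 MYOG averaged 128 CPM in SC and 314 CPM in unsorted cultures, and PAX3 42.7 and 24.0 CPM.

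SCs after 72 h in culture had less of all 4 MRFs than SCs of muscle, and MYOG was close to 0 in them. MYF5 ranged from 413 to 1678 CPM with a median of 666 over the 10 donors in muscle, and from 19.6 to 100 CPM with a median of 61.5 over the 9 donors at Timepoint 2. MYOD1 ranged from 43.8 to 291 (median 116) and then from 0.611 to 37.1 CPM (median 1.90). MYF6 ranged from 78.0 to 313 (median 165) and then from 13.0 to 24.3 CPM (median 21.3). For these 3 genes no donor at Timepoint 2 reached the lowest donor in muscle.

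MYOG ranged from 0 to 1109 CPM (median 268) in muscle and from 0 to 11.1 CPM (median 0.224) at Timepoint 2, and the groups overlapped only through donor 3, whose muscle SCs held no MYOG UMI. The resting-cell marker PAX7 ranged from 4.44 to 33.0 CPM (median 15.6) in muscle, on 45 UMIs in 43 cells, and from 2.17 to 5.40 CPM (median 3.53) at Timepoint 2, so its groups overlapped. All 9 donors with both timepoints were lower at Timepoint 2 for the 4 MRFs and for PAX7.

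In edgeR's quasi-likelihood test over all genes (10 against 9 donors, Benjamini-Hochberg adjustment), 4 of the 7 genes passed the filter on low counts. A gene can pass it through the group where it is high, here muscle, so the number that fell among those that passed says little. Calls needed a log2 fold change (log2FC) of more than 1 in size besides an adjusted p under 0.05, and 18.5% of all 5221 genes tested were called lower. MYF5 fell by 3.73 on the log2 scale (SE 0.29, adjusted p = 9.3e-10), MYOD1 by 4.71 (SE 0.61, adjusted p = 1.5e-06), MYOG by 8.85 (SE 0.83, adjusted p = 2.3e-08) and MYF6 by 3.06 (SE 0.21, adjusted p = 8.2e-12). PAX7 did not pass the filter and fell by 1.80 (SE 0.31, adjusted p = 3.7e-06, edgeR) in the fit without it, in which 18.1% of 15910 genes were called lower. PAX3 and PAX6 had no UMI in the SCs of muscle, which allows up to 1.07 CPM.

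The lists around the MRFs are counted in the fit without the filter, in which 15.1% of genes were called higher and 18.1% lower, since a gene at 0 in culture passes the filter only through muscle. Values of named genes are from the filtered fit. Of 21 dimer partners and cofactors tested there 13 fell and 1 rose. Among them SMARCD3, the chromatin remodelling subunit that MYOD1 recruits, fell by 2.54. Of 21 inhibitors of basic helix-loop-helix factors 11 fell and 3 rose, among them the Notch targets HES1, which fell by 5.93, and HEYL, which fell by 4.76, and ID3, which fell by 2.64. Of 41 targets in commitment and fusion 35 fell and 1 rose: ACTA1, skeletal actin, fell by 11.11, and MYL1, a fast myosin light chain, and MYMK, the fusion protein myomaker, went from 63.7 and 38.7 CPM to 0 UMIs, at least 921-fold and 559-fold lower at the floor of 3 counts over the group.

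Other lists moved between the same 2 libraries. The sum of 12 early-response genes in SCs ranged from 16514 to 38772 CPM in muscle and from 975 to 1206 CPM at Timepoint 2, and the summed muscle fibre markers from 658 to 1737 and then from 60.7 to 138 CPM. Counted without the filter, SC markers fell in 9 of 9, from sums of 1451 to 3131 CPM to sums of 144 to 296 CPM. FAP markers in SCs rose in 4 of 6 and cell cycle markers in 8 of 8, and their sums reached 1890 to 2979 and 966 to 1428 CPM at Timepoint 2. The fibre markers also ranged from 1147 to 1957 CPM in the FAPs of muscle. The part of these in the falls of the MRFs was not tested.

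**Figure D3:**
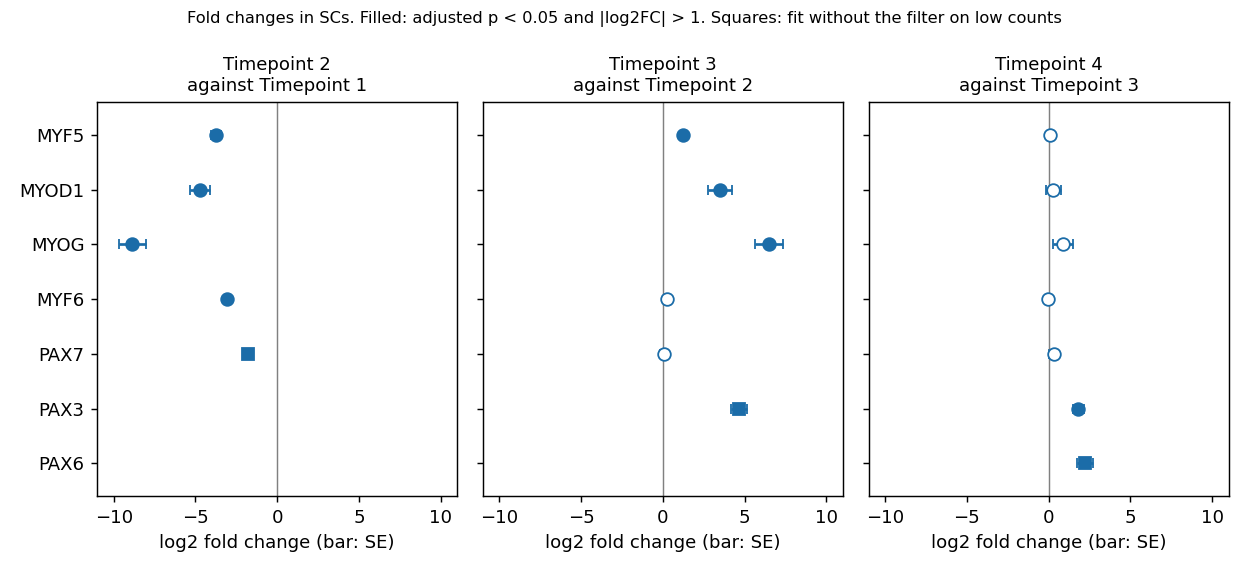
Log2 fold changes of the 7 genes in SCs between successive timepoints, with the SE as bars; filled symbols mark calls, and squares mark genes taken from the fit without the filter on low counts. At Timepoint 2 the MRFs and PAX7 lie left of 0, at Timepoint 3 MYF5, MYOD1, MYOG and PAX3 lie right of it, and at Timepoint 4 the filled symbols are PAX3 and PAX6. PAX6 at Timepoint 3 and PAX3 and PAX6 at Timepoint 2 have no symbol because a group held no UMI.

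Between passage 0 and passage 2 the early MRFs and MYOG rose again in SCs, PAX3 rose too, and MYF6 and PAX7 had no call. MYF5 ranged from 93.9 to 166 CPM (median 144) at Timepoint 3, higher than at Timepoint 2 in 9 of 9 donors, and only donor 4 at Timepoint 2, with 100 CPM, overlapped. MYOD1 ranged from 5.88 to 178 CPM (median 28.3), with donors 5 and 6 of the SC cultures highest at 178 and 170 CPM and the FAP-culture donors 7 and 8 lowest, and rose in 9 of 9 donors although the groups overlapped. MYOG ranged from 10.8 to 219.9 CPM (median 113), and only donor 5 at Timepoint 2 reached into that range. Of the FAP-culture donors, donor 8 had 123 CPM at Timepoint 3, with all 42 UMIs in 1 of its 18 SCs. Donors 4 and 7 had 10.8 and 12.8 CPM, over 95 and 50 SCs.

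In edgeR's test (9 against 9 donors) 5 of the 7 genes passed the filter, and 6.15% of 9793 genes tested were called higher. Here too a gene can pass the filter through the group where it is high, Timepoint 3, so the number that rose says little. At Timepoint 2 MYOG had 44 UMIs over all SCs, 33 of them in donor 5. MYF5 rose by 1.21 on the log2 scale (SE 0.19, adjusted p = 4.6e-05), MYOD1 by 3.50 (SE 0.74, adjusted p = 0.00093) and MYOG by 6.49 (SE 0.84, adjusted p = 7.9e-06). MYF6, at 17.6 to 38.2 CPM (median 22.3), had a log2FC of 0.28 (SE 0.12, adjusted p = 0.0677) and PAX7, at 0 to 6.10 CPM (median 3.72), one of 0.08 (SE 0.23, adjusted p = 0.833). These 2 ranges overlapped those of Timepoint 2.

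PAX3 had 15 UMIs in the 2282 SCs of Timepoint 2, from 6 of 9 donors and at most 0.814 CPM, and 0.904 to 14.5 CPM (median 7.93) at Timepoint 3. The groups did not overlap, and donor 9 was lowest at Timepoint 3. Without the filter, in a fit in which 7.06% of 16724 genes were called higher, PAX3 rose by 4.67 on the log2 scale (SE 0.49, adjusted p = 3.9e-07, edgeR). PAX6 had no UMI in SCs of Timepoint 2 and 95 UMIs in those of Timepoint 3, from 5 of 9 donors. Of these UMIs 93 were in the SC-culture donors, 2 in the unsorted donors and none in the 3 FAP-culture donors. The pooled PAX6 level was 0.933 CPM. That was at least 13.5-fold higher than the 0.0691 CPM that 3 counts over the SCs of Timepoint 2 would give.

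The lists around them are again counted without the filter, where 7.06% of genes were called higher and 5.48% lower, with values of named genes from the filtered fit. Of 41 targets in commitment and fusion 35 rose and 0 fell: the fast light chain MYLPF rose by 10.11, fast troponin C TNNC2 by 8.32 and cardiac actin ACTC1, an early sarcomeric actin, by 8.11. At Timepoint 2 MYLPF and TNNC2 averaged 0.56 and 0.78 CPM, so they can pass the filter through Timepoint 3. Of 22 partners and cofactors 4 rose, among them PITX3 by 1.99, SMARCD3 by 1.94 and KLF5 by 1.37. Of 21 inhibitors 4 rose, led by ID3 (1.76), HES1 (1.62) and MDFI (1.38), and BHLHE40 fell by 1.62. Markers of other kinds moved as well: muscle fibre markers rose in 11 of 14 and FAP markers in 4 of 6, and cell cycle markers fell in 5 of 8. Their part in the rise of the MRFs was not tested. This comparison shares its Timepoint 2 samples with the comparison against muscle and its Timepoint 3 samples with those that follow.

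**Figure D4:**
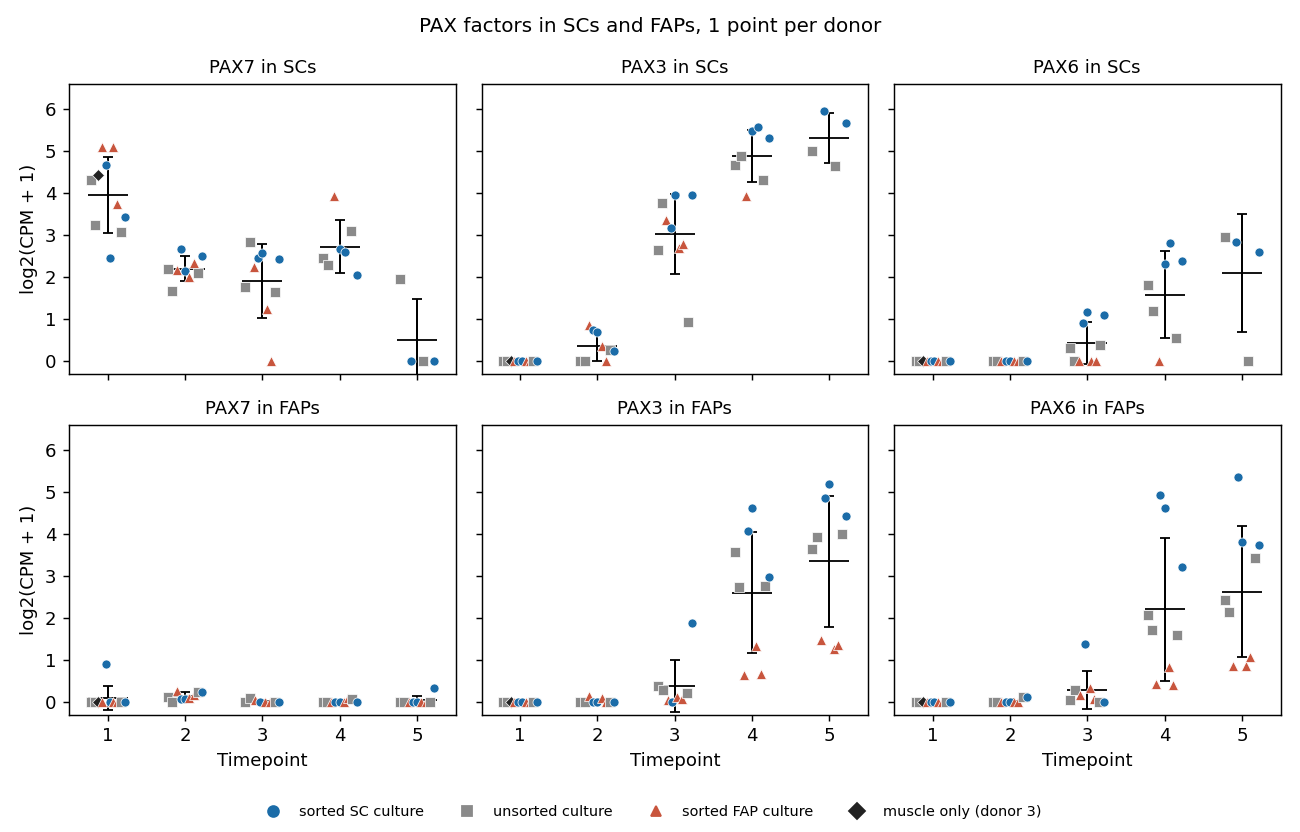
Levels of PAX7, PAX3 and PAX6 as log2(CPM + 1) in SCs (top) and in cells labelled FAPs (bottom), with 1 point per donor with at least 10 cells, against the timepoint; lines are means, bars are SD, and colours give the kind of culture. PAX3 in SCs climbs from 0 at Timepoint 1 to 24.1 to 61.1 CPM at Timepoint 5, and in FAPs of Timepoints 4 and 5 the FAP cultures lie below the other cultures for PAX3 and PAX6.

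Between passages 2 and 5 PAX3 kept rising in SCs, while none of the MRFs had a call. PAX3 at Timepoint 4 ranged from 14.2 to 46.6 CPM (median 28.5) over 7 donors and was higher than at Timepoint 3 in 7 of 7, and only donor 4 lay within the range of Timepoint 3. The SC-culture donors 5, 6 and 10 had 43.1, 46.6 and 38.5 CPM, the unsorted donors 1, 2 and 9 had 24.5, 28.5 and 18.9 CPM, and donor 4, with 10 SCs and 2 PAX3 UMIs, had 14.2 CPM. PAX6 ranged from 0 to 5.97 CPM (median 2.48), highest in donor 6, and overlapped with Timepoint 3.

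In edgeR's test (7 against 7 donors, 6 of the 7 genes past the filter) PAX3 rose by 1.83 on the log2 scale (SE 0.36, adjusted p = 0.0225), where 0.248% of 10093 genes were called higher. PAX6 rose by 2.20 (SE 0.48, adjusted p = 0.0387, edgeR) in the fit without the filter, where 0.209% of 16741 genes were called higher. Without donor 4, the one FAP-culture donor, the log2FCs were 1.83 and 2.10 and neither gene was called (adjusted p = 0.0613 for each, edgeR); over all alternatives the adjusted p ranged from 0.00061 to 0.0613 for PAX3 and from 0.0113 to 0.0613 for PAX6. With the donor as a block 231 genes were called in place of 42, and PAX3 rose by 1.95 (SE 0.24, adjusted p = 0.0025, edgeR).

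The MRFs of Timepoint 4 overlapped those of Timepoint 3. MYF5 ranged from 103 to 195 CPM (median 127), with a log2FC of 0.07 (adjusted p = 0.853, edgeR). MYOG ranged from 0 in donor 4 to 427 CPM in donor 1 (median 179.5), with a log2FC of 0.89 (adjusted p = 0.443, edgeR). MYOD1 (21.3 to 143 CPM) and MYF6 (18.9 to 35.5 CPM) had log2FCs of 0.27 and -0.02, and PAX7 (3.12 to 14.2 CPM) had 0.32, with adjusted p-values of 0.805, 0.971 and 0.819. In the filtered fit none of the 20 partners, 14 inhibitors and 39 targets tested was called, at medians of 0.29, 0.07 and 1.302. Over all 10093 genes tested the median was -0.01, and 25 were called higher and 17 lower. With so few calls, the lack of a call for the lists or the MRFs says little.

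At passage 8 few SCs were left, and PAX3 was again high in them. Of the 156 SCs labelled at Timepoint 5, only donors 1, 6, 9 and 10 had at least 10. Their PAX3 levels were 30.9, 61.1, 24.1 and 49.5 CPM, each above the same donor at Timepoint 3. MYOG was 181, 75.4, 113 and 95.1 CPM, MYF5 was 110, 136, 40.2 and 225 CPM, and MYOD1 was 70.5, 16.3, 0 and 124 CPM in the same donors. PAX7 was at 2.90 CPM in donor 1, on 3 UMIs, and at 0 in the others.

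In edgeR's test of Timepoint 5 against Timepoint 3 (4 against 4 donors, 5 of the 7 genes past the filter) 0% of 8782 genes were called, 1079 had an unadjusted p under 0.05, and DESeq2 called 126. PAX3 had a log2FC of 2.21 (SE 0.63, adjusted p = 0.236, edgeR). It was called with the donor as a block (2.28, SE 0.35, adjusted p = 0.0242, edgeR, 50 genes called in all) and in DESeq2 (2.26, adjusted p = 0.0373), and its adjusted p ranged from 0.0242 to 0.98 over the alternatives.

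The share of SCs in which a gene was found was also taken with every cell thinned to 2000 UMIs. Averaged over donors, MYF5 was found in 59.3% of SCs in muscle and then in 10.1, 22.4, 21.6 and 16.4% of those in culture, from Timepoint 2 to Timepoint 5. PAX3 was found in 0% of the thinned SCs of the first 2 timepoints and then in 1.99, 6.20 and 10.3%. MYOG was found in 10.3, 0.209, 4.65, 7.90 and 20.2% from Timepoint 1 to Timepoint 5. The last of these rested on donor 9, with MYOG in 6 of 12 SCs, and was 10.2% without that donor, a setting added after the data were seen. For comparison, MYF5 was found in 1.05% and MYOD1 in 1.88% of the VECs of muscle. At Timepoint 2 MYOD1 was found in 1.03% of SCs and in 0.113% of FAPs, at median depths of 18215 and 24523 UMIs before thinning. Without donor 5 the Timepoint 2 shares of SCs were 0.614% for MYOD1 and 0.0813% for MYOG. Unthinned, the shares with MYF5 were 51.4, 74.1, 70.6 and 52.6% at Timepoints 2 to 5, and those with PAX3 were 0.53, 15.6, 37.4 and 41.9%.

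At passage 2 none of the 7 genes had a called difference between the SCs of sorted SC cultures and those of unsorted cultures. These cultures held different donors on different coatings, so sort, donor and coating cannot be told apart. The sorted SC cultures of donors 5, 6 and 10 had 154, 146 and 157 MYF5 CPM and the unsorted cultures of donors 1, 2 and 9 had 93.9, 127 and 100.998 CPM. These groups did not overlap, and the log2FC was 0.40 (adjusted p = 0.0857, edgeR). PAX6 did not overlap either, at 0.881, 1.23 and 1.13 against 0.239, 0 and 0.301 CPM, with a log2FC of 2.33 (adjusted p = 0.0626, edgeR). The unsorted donors 1, 2 and 9 held only 1, 0 and 1 PAX6 UMIs.

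MYOD1 was 178, 170 and 47.1 CPM against 25.1, 76.0 and 28.3 CPM, and overlapped through donor 10, with a log2FC of 1.52 (adjusted p = 0.159, edgeR) that was 2.21 without donor 2. PAX3 was 7.93, 14.4 and 14.5 CPM against 5.26, 12.6 and 0.904 CPM, with a log2FC of 0.91 (adjusted p = 0.378, edgeR) that was 0.40 without donor 9 and 1.82 without donor 2. All 7 genes passed the filter, and none was called, where 7.51% of 11378 genes tested were called in either direction. Of the surrounding lists, 3 of 17 inhibitors tested, the repressors BHLHE41, TWIST1 and BHLHE40, were lower in SC cultures, where 4.46% of all genes were called lower. The summed cell cycle markers of SCs ranged from 701 to 1009 CPM in the SC cultures and from 91.4 to 259.7 CPM in the unsorted ones. Early-response genes were lower in SC cultures in 9 of 12, with sums of 567.7 to 801 CPM against 1060 to 1638 CPM, and the part of both lists in these values was not tested.

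MYOG was low in cells called in S or G2M phase, and MYF5 was not. At Timepoint 3, MYOG in G1 cells against S or G2M cells was 174 against 7.70 CPM in donor 1, 137 against 2.95 in donor 2, 19.4 against 3.45 in donor 4, 434 against 72.5 in donor 5, 184 against 49.0 in donor 6, 15.8 against 6.47 in donor 7, 123 against 0 in donor 9 and 53.3 against 7.89 in donor 10. It was lower in 8 of 8 donors. MYF5 ranged from 89.5 to 184 CPM in G1 and from 92.1 to 189.7 CPM in S or G2M, lower in 5 of 8 donors.

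With the donor as a block in edgeR's test (8 donors, 6 of the 7 genes past the filter), MYOG was lower in S or G2M by a log2FC of -2.67 (SE 0.28, adjusted p = 0.00015), and 1.45% of 8954 genes were called lower. MYOG can pass that filter through G1, where it is high. MYF5 had a log2FC of -0.15 (adjusted p = 0.347), MYOD1 of -0.01 (adjusted p = 0.981), MYF6 of -0.13 (adjusted p = 0.334) and PAX3 of 0.11 (adjusted p = 0.534). Counted without the filter, where 2.84% of 16225 genes were called lower, 31 of 41 targets were lower, with the filtered fit's values led by ACTA1 (-5.17), MYLPF (-4.28) and the embryonic myosin MYH3 (-4.27). The phase calls are the authors' scores per cell, which free RNA can also enter, and its part was not tested.

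At Timepoint 2, where MYOG was at most 0.757 CPM in either phase outside donor 5 (15.9 CPM in G1 and 10.01 CPM in S or G2M), MYF5 and MYF6 were higher in S or G2M cells in 9 of 9 donors. MYF5 ranged from 12.3 to 91.5 CPM (median 47.7) in G1 and from 25.3 to 101.2 CPM (median 68.8) in S or G2M, and MYF6 from 4.93 to 21.8 (median 14.9) and from 18.4 to 26.3 CPM (median 22.8). Their log2FCs were 0.43 (SE 0.08, adjusted p = 2.6e-05, edgeR) and 0.52 (SE 0.13, adjusted p = 0.00135, edgeR). Both were under the log2FC of 1 that a call needed, which 5.38% of 8326 genes passed in either direction, and these 2 were the ones of the 7 genes that passed the filter.

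**Figure D5:**
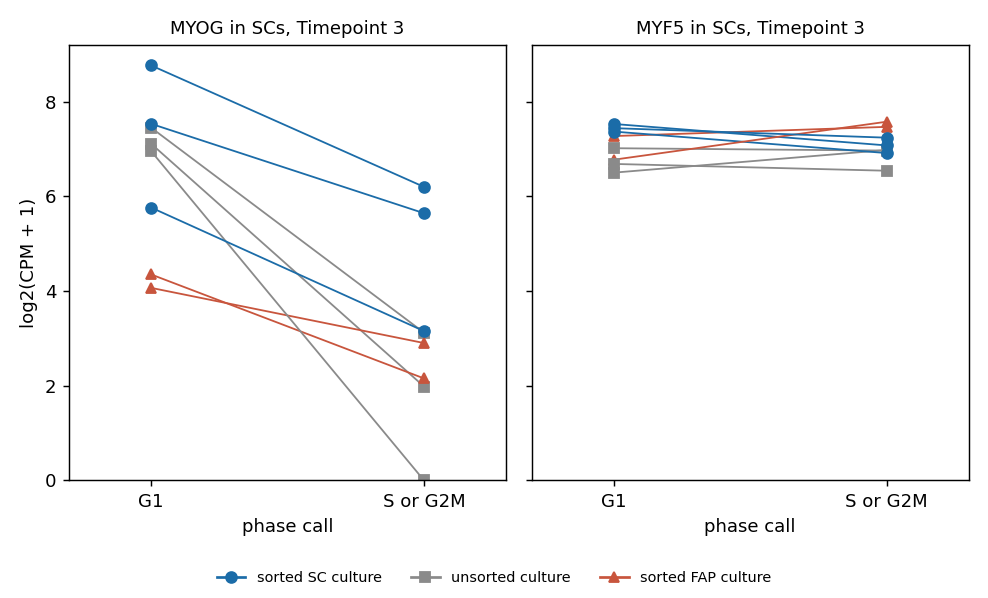
MYOG (left) and MYF5 (right) in SCs of Timepoint 3 as log2(CPM + 1), for cells called in G1 and cells called in S or G2M, with a line for each of the 8 donors with at least 10 cells in both. MYOG falls along every line, from 15.8 to 434 CPM down to 0 to 72.5 CPM, while the lines of MYF5 run both ways, down in 5 of 8 donors.

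PAX3 and PAX6 were also found in cells labelled FAPs, at levels that differed between the kinds of culture. The kinds of culture held different donors, so a culture's sort, its coating and its donors cannot be told apart. At Timepoint 4 PAX3 in FAP-labelled cells was 0.551, 1.53 and 0.595 CPM in the FAP cultures of donors 4, 7 and 8. It was 10.9, 5.70 and 5.77 CPM in the unsorted cultures of donors 1, 2 and 9, and 15.8, 23.7 and 6.88 CPM in the SC cultures of donors 5, 6 and 10. The FAP cultures were lowest and did not overlap with either of the other kinds, and the same held for PAX6, at 0.356, 0.784 and 0.335 CPM, then 3.20, 2.27 and 2.00 CPM, then 29.4, 23.7 and 8.26 CPM.

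At Timepoint 5 PAX3 was 1.79, 1.42 and 1.54 CPM in FAP cultures, 11.5, 14.3 and 14.9 CPM in unsorted cultures and 27.9, 35.7 and 20.5 CPM in SC cultures. PAX6 was 0.815, 0.809 and 1.101 CPM, then 4.36, 3.42 and 9.75 CPM, then 40.0, 12.9 and 12.3 CPM. All 3 kinds of culture were apart for both genes. From Timepoint 3 to Timepoint 4 both genes were higher in 8 of 8 donors, and at Timepoint 3 PAX3 had been at most 2.67 CPM, on 1 UMI in the 12 FAPs of donor 10.

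These comparisons were added after the values had been seen, and both use the same FAP cultures as the reference. Their p-values come from those same values and give no independent support. A gene can pass the filter through the group where it is high, here the SC or unsorted cultures. In FAP cultures both genes were at most 1.53 CPM at Timepoint 4 and 1.79 CPM at Timepoint 5. For SC against FAP cultures at Timepoint 4 (3 against 3 donors), where 7.99% of 11517 genes were called higher, PAX3 had a log2FC of 3.86 (SE 0.52, adjusted p = 0.0011, edgeR) and PAX6 one of 5.28 (SE 0.54, adjusted p = 0.00039, edgeR). At Timepoint 5, where 0.696% of 9911 genes were called higher, the log2FCs were 4.08 (SE 0.28, adjusted p = 0.0021, edgeR) and 4.52 (SE 0.71, adjusted p = 0.036, edgeR). Without donor 7 the adjusted p at Timepoint 5 was 0.0517 for PAX3 and 0.167 for PAX6, and PAX6 was also not called without donor 8 (0.136) or donor 10 (0.0589). At Timepoint 4 the log2FC of PAX3 was 4.47 without donor 7, and that of PAX6 without donor 5 was 4.64 at Timepoint 4 and 3.69 at Timepoint 5.

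For unsorted against FAP cultures at Timepoint 4, where 0.676% of 11687 genes were called higher, the log2FCs were 3.12 for PAX3 (SE 0.47, adjusted p = 0.039, edgeR) and 2.39 for PAX6 (SE 0.39, adjusted p = 0.0402, edgeR). Both calls were lost without donor 1, 4, 7, 8 or 9, at adjusted p-values of up to 0.133 (edgeR), and PAX3 without donor 7 had a log2FC of 3.75. At Timepoint 5, where 0.0201% of 9950 genes were called higher, PAX3 had a log2FC of 3.09 (SE 0.24, adjusted p = 0.0324, edgeR), lost without any 1 of the 6 donors (0.0605 to 0.314), and PAX6 one of 2.66 (SE 0.50, adjusted p = 0.522, edgeR; 0.0206 in DESeq2).

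The MRFs in the same FAP-labelled cells were below their levels in SCs. In SC cultures at Timepoint 4 the pooled level in FAP-labelled cells was 1.47% of that in the pooled SCs of all cultures at that timepoint for MYF5, 2.27% for MYOD1, 2.12% for MYOG, 6.43% for MYF6, 37.3% for PAX3 and 581% for PAX6. Donor 5 gave 593 of these 694 cells, and without that donor, a setting added after the data were seen, the shares were 5.29, 7.55, 4.82, 10.5, 28.9 and 276%. At Timepoint 5, with all donors, they were 1.70, 0.819, 1.298, 3.02, 76.8 and 363%, and PAX6 stood at 241% without donor 5. The SC level there came from 156 SCs, with 14 PAX6 UMIs in 11 cells. Of their 99 MYF6 UMIs, 43.4% were in 2 cells of 1 donor. In the FAP cultures MYF6 stood at 19.5% of the SC level at Timepoint 4. PAX3 there stood at 2.10 and 3.99% of the SC level at the same timepoints. MYF6 went the other way at Timepoint 4, with a log2FC of -1.65 in SC against FAP cultures (SE 0.49, adjusted p = 0.0264, edgeR; 7.9% of genes were called lower), which was lost without donor 5 (0.278), 7 (0.0764) or 10 (0.0888).

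At Timepoint 4 the FAP-labelled cells of the SC cultures differed from other FAPs in their markers too. Their 6 summed FAP markers ranged from 8499 to 11791 CPM at Timepoint 4, against 42389 to 56529 CPM in FAP cultures, 21810 to 43389 CPM in unsorted cultures and 6967 to 9608 CPM in the SCs of the same SC cultures, so these cells did not stand clear of SCs by the FAP list. Their 9 SC markers summed to 20.4 to 81.3 CPM, with CALCR, CHRDL2 and CHODL at 0, against 540 to 1045 CPM in the SCs. Their cell cycle markers ranged from 535 to 849 CPM, against 63.6 to 122 CPM in FAP cultures, and the part of these in PAX3 and PAX6 was not tested. In the filtered fit against FAP cultures, 5 of 6 FAP markers were lower, 1 was higher and 8 of 8 cell cycle markers were higher. At Timepoint 5, where 104 of 9911 genes were called lower, 1 of 6 FAP markers was lower. There 0 of 8 cell cycle markers were called, at a median log2FC of 0.41. Over the FAP-labelled cells of Timepoint 4 thinned to 10000 UMIs, PAX6 was found in 14.7% of the 259 cells with PAX3 and in 2.54% of those without, but donors and cultures differ in both genes. Within donor 5 the shares were 32.2% of 87 and 21.0% of 486 cells, within donor 1 they were 2.63% of 38 and 2.49% of 402 cells, and in donors 4, 7 and 8 none of the 8, 17 and 7 cells with PAX3 had PAX6.

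Genes whose levels ran most like each of the 7 were sought over the 19 groups among 12389 genes, as Pearson's r of log2(mean CPM + 1), a description in which groups share libraries. MYF5 was most like CDH15, the SC cadherin (r = 0.948), after an unnamed gene (ENSBTAG00000050189, 0.959). MYOD1 was most like CBLN4 (0.968), MYOG like MYMK (0.974) and CHRND, a subunit of the muscle acetylcholine receptor (0.963), MYF6 like IP6K3 (0.940), and PAX7 like POPDC3 (0.946). PAX3 was most like MSLN, the surface protein mesothelin (0.954), and TFAP2A, the transcription factor AP-2 alpha (0.951), and PAX6 like SST, the hormone somatostatin (0.922), and again TFAP2A (0.919).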

How the data were processed

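The deposited files were UMI count matrices, 1 per timepoint, which the authors made with Cell Ranger 6.0.1 on the bovine build ARS-UCD1.2 from Chromium 3′ libraries; some timepoints joined 2 sequencing runs in 1 matrix. The deposited cell tables gave the donor from demuxlet, quality control, cell type and phase call of each cell. All 36129 cells listed there were kept, with no filter beyond the authors' own quality control. Demuxlet can find doublets between donors alone, so doublets within a donor can remain. Symbols standing for several genes numbered 68, none of them among the 7.

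The 7 genes and all gene lists were chosen with earlier results of these data known. Counts were summed per donor, cell type and timepoint where at least 10 cells were present, and compared with edgeR 4.0.16 (R 4.3.3; quasi-likelihood F test, robust, TMM, filterByExpr, Benjamini-Hochberg over all genes tested), with the thresholds given above. Genes held out by the filter were taken from the fit without it. DESeq2 1.42.0 was an alternative. Donors were the replicates, and p-values measure the spread between them. Named list genes were the 3 called genes of a list with the largest change in each direction, apart from some that are not reported here. The fits were tested on simulated data with 200 changed genes. Tables used Python 3.11.15.

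Donors recur across timepoints, so the donor pairs the samples: same-donor deviations from the group means correlated at -0.14 to 0.19 between Timepoints 1 and 2, 0.03 to 0.35 between 2 and 3, 0.09 to 0.58 between 3 and 4 and 0.01 to 0.24 between 3 and 5. The block was part of the phase comparisons and an alternative elsewhere. UMIs count molecules, and floors of 3 counts cover counting error only. The planned comparison of calves with adults was not made: the study gives the age class of each donor, but the labels and deposited tables do not. It was planned only for the case that the deposited cell tables carried the age class. The kind of culture was taken from the design text of the series.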

Additional observations from a re-analysis of the deposited data

Results flagged for a closer look

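Of 32 groups of donors looked at, 4 held a donor far from the rest, and how often chance would give this with so few UMIs and donors was not measured. At Timepoint 2, donor 5 had 37.1 MYOD1 CPM in SCs against 6.55 in the next donor, and 11.1 MYOG CPM against 0.549, so that 1 donor, which later entered an SC culture, was apart for both genes. PAX7 in SCs of Timepoint 4 was 14.2 CPM in donor 4, on 2 UMIs in 10 cells, against 7.57 in the next donor. PAX7 in SCs of Timepoint 5 was 2.90 CPM in donor 1, on 3 UMIs, and 0 in the other 3 donors.

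MYOD1 was found outside SCs at Timepoint 1: 110 UMIs lay in 25 of the 1166 VECs, and 10 cells of 4 donors held 72.7% of them. Of the 25 cells 12% had a UMI of PECAM1, the endothelial marker, against 80.4% of the other VECs, and their median depth was 9637 against 2738 UMIs. Whether these are mislabelled or joined cells was not tested.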

How the results depend on the processing

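Without the filter on low counts the counts of called genes went from 1789 to 5286 for Timepoint 2 against 1, from 984 to 2097 for 3 against 2, from 0 to 16 for 5 against 3, and from 448 to 741 and from 459 to 1028 for the phases at Timepoints 2 and 3. With every sum thinned to the smallest total they were 528, 379 and 8 for the successive timepoints, 181 and 123 for the phases, 1031 in place of 1830 for SC against FAP cultures at Timepoint 4 and 0 in place of 2 for unsorted against FAP cultures at Timepoint 5; fewer reads enter such a fit. DESeq2 called 114 in place of 42 genes for Timepoint 4 against 3, 126 in place of 0 for 5 against 3, 414 in place of 173 and 23 in place of 2 for SC and unsorted against FAP cultures at Timepoint 5, and 344 in place of 121 for unsorted against FAP cultures at Timepoint 4. With at least 30 cells, or without FAP-culture donors (added after seeing the data), 21 genes were called for Timepoint 4 against 3, and 367 with SC-culture donors alone; with at least 30 cells 831 were called for the phases at Timepoint 3. The cause was not tested. The donor block called 231 and 50 genes for Timepoints 4 and 5 against 3, and changed no other call of the 7 genes than PAX3 at Timepoint 5.

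Leaving out 1 donor at a time gave 0 to 6 calls for Timepoint 5 against 3, 1 to 1114 for SC against unsorted cultures (855 with all; 1 without donor 1, 109 without donor 9, 298 without donor 5), 1645 to 1929 and 1 to 523 for SC against FAP cultures at Timepoints 4 and 5, and 1 to 170 and 0 to 1 for unsorted against FAP cultures. Thinned, PAX3 and PAX6 lost their calls in unsorted against FAP cultures at Timepoint 4 (adjusted p = 0.055 and 0.0522, edgeR) and PAX3 at Timepoint 5 (0.0504). Signs turned for uncalled values alone: PAX7 at Timepoint 3 against 2 to -0.0775 with the block; at Timepoint 4 against 3, MYF5 to -0.0085 when thinned, and MYOD1 to -0.11 and PAX7 to -0.0013 with SC-culture donors alone; MYOD1 between phases at Timepoint 3 to 0.080 in DESeq2, 0.011 without the filter and 0.064 without the block. Of the values of single genes and shares recomputed, 492 kept their direction and call or, for levels and shares, stayed within 1 SD, 30 lost a call, 3 gained one, and 28 shares moved beyond 1 SD without thinning. Without donor 5, an added setting, MYOD1 and PAX6 in the FAP-labelled cells of SC cultures at Timepoint 4 also moved beyond 1 SD. The comparison of calves with adults and its alternatives were not run.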

Other observations

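The 45 cells of muscle labelled myocytes held 23 MYF6, 10 MYOG and 11 MYF5 UMIs, and 10 of the MYF5 UMIs were in 1 cell of donor 5. In the 694 FAP-labelled cells of the SC cultures at Timepoint 4, PAX7 had no UMI, and at Timepoint 5 it had 1 UMI in 945 cells.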
